A study of Mus musculus with 2 samples.

Results

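The collagen genes were described as a family across the stromal cells of the infarcted mouse heart. Every gene whose symbol consists of Col, a type number, the letter a and a chain number was a member, and 44 of the 32287 features in the count tables met this rule. The cells were non-cardiomyocytes from the infarct zone of p16-2A-CreER;R26-mTmG mice. In such mice a tamoxifen-dependent Cre recombinase is expressed together with p16, the cell cycle inhibitor encoded by Cdkn2a, and the R26-mTmG reporter switches recombined cells and their descendants to membrane GFP. All mice had surgery for myocardial infarction (MI), received tamoxifen by oral gavage on day 5 and were dissected on day 7. Cardiomyocytes were spun out, erythrocytes were lysed, and the remaining cells were sorted by flow cytometry into a GFPhi and a GFPlo fraction, which the sample labels also call GFP+ and GFP-. GFPlo was the comparator. Both fractions therefore carried both alleles, the infarct and the tamoxifen. The age, sex and number of the mice are not in the labels, and no uninjured heart was analysed here.

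Each fraction was 1 droplet-based single-cell library read from the 3′ ends of transcripts, so the difference between fractions has no replicate check and no test was made. A count is a unique molecular identifier (UMI), which stands for 1 captured transcript. Levels are in CPM, a gene's UMIs summed over the cells of a group and scaled to all UMIs of those cells, so that 10000 CPM is 1% of the UMIs. A 3′ library gives 1 end per transcript, so CPM was not divided by gene length. Ratios carry exact 95% intervals that cover counting error only and leave out any variation between mice. A gene was measured in a comparison when it had at least 10 CPM on one side and 20 UMIs over both sides.

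Collagens are trimers of alpha chains wound into a triple helix, which requires glycine at the head of each residue triplet. Fibrillar collagens (types I, II, III, V, XI, XXIV and XXVII) form the rope-like fibrils of scar, tendon and cartilage. Type IV builds the sheet under endothelium and around muscle and fat cells, and types XV and XVIII are basement membrane collagens that carry sugar side chains. Type VI forms beaded filaments around cells, types VIII and X form hexagonal networks, and types IX, XII, XIV, XVI and XXII decorate fibril surfaces. After infarction, activated fibroblasts are known for depositing types I and III in the scar. The members comprised 11 fibrillar, 8 basement membrane, 3 network, 6 beaded filament, 9 fibril-associated and 4 transmembrane genes, with 3 others (Col7a1, Col26a1 and Col28a1). Across these lists, 8 genes were counted as cartilage-type.

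The triplet rule is visible in the exons of the most abundant members. Many coding exons of fibrillar collagen genes are 54 bases long and hold 6 glycine triplets. The first such exon of 4 abundant fibrillar chains is shown with the glycine codons in capitals (GRCm38/mm10, GENCODE vM21):
Col1a1 exon 8, chr11:94939904-94939957, plus strand: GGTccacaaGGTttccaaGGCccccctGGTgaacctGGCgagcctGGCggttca
Col1a2 exon 8, chr6:4515481-4515534, plus strand: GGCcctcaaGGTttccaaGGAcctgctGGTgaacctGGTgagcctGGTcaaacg
Col3a1 exon 6, chr1:45325360-45325413, plus strand: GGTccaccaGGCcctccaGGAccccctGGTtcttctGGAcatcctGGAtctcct
Col5a2 exon 6, chr1:45434892-45434945, minus strand: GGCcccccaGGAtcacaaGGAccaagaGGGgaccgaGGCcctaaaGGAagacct

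Exons of exactly 54 bases made up 305 of 627 internal coding exons of the fibrillar genes (48.6%), against 16 of 361 in the basement membrane genes (4.43%) and 1166 of 158930 over all protein-coding genes (0.734%). The fibril-associated genes lay between, at 109 of 414 (26.3%), from 6.35% in Col12a1 to 46.7% in Col9a2 and Col9a3. The longest unbroken run of glycine-headed codon triplets was 338 triplets in Col1a1, 339 in Col1a2, 344 in Col3a1 and 339 in Col5a2. In Col24a1 and Col27a1, the minor fibrillar chains, it was 216 and 217. The basement membrane genes had a median longest run of 41 triplets, with a range of 30 to 66, since their helices are interrupted. The fibrillar genes thus stood apart from the basement membrane genes in the structure of the gene.

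Several members lie beside another member. The type IV chains come in 3 head-to-head pairs: Col4a1 and Col4a2 on chromosome 8, whose annotated first exons overlap, Col4a4 and Col4a3 on chromosome 1, 71 bases apart, and Col4a6 and Col4a5 on the X chromosome, 1308 bases apart. The windows around the starts (250 bases before to 50 after, RefSeq, GRCm38.p6) are shown for the first pair and for Col4a4, because the levels of the pairs are compared by cell group further on. Capitals mark CCAAT or GGGCGG on either strand; these motifs do not overlap in the windows printed.
Col4a2, chr8:11312555-11312854, plus strand: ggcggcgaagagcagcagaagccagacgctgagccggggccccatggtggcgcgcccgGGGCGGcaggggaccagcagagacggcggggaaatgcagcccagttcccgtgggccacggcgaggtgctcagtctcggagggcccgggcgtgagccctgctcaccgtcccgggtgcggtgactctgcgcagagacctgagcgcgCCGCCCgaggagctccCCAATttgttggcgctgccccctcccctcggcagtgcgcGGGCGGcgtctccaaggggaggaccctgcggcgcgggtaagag
The part shared with the Col4a1 window, chr8:11312777-11312854, plus strand: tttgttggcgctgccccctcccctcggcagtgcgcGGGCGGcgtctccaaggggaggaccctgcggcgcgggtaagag
Col4a4, chr1:82586800-82587099, minus strand: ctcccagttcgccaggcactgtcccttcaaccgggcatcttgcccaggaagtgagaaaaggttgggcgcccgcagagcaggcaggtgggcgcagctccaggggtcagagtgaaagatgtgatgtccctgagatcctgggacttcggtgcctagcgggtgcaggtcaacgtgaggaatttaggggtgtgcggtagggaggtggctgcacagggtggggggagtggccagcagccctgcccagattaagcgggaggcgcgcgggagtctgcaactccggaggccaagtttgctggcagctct

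The Col4a1 and Col4a2 windows held 74.0% and 73.7% G or C, and the Col4a4 window 63.3% and neither motif. GGGCGG was in 23 of 38 windows of the 35 members with a RefSeq entry (60.5%), against 35.7% of all 32851 windows. CCAAT was in 13 of the 38 (34.2%, against 37.4%) and TATAAA in 5 (13.2%, against 13.6%). A match describes the letters only.

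Cells with fewer than 300 genes, fewer than 500 UMIs or over 20% mitochondrial UMIs were left out, and 22084 remained, 10125 in GFPhi and 11959 in GFPlo, with medians of 6899 and 7712 UMIs per cell. The libraries shared 92 barcodes. Macrophages made up 72.7% of the GFPhi cells and 0.702% of the GFPlo cells, so every comparison between fractions was made within a cell class. Cells were clustered with the collagens left out of the variable genes. Fibroblasts were clusters 16, 17, 18, 19, 24 and 25 (356 GFPhi and 6398 GFPlo cells), in which at least 25% of cells had a UMI of Pdgfra and at least 75% of Dcn and of Lum. This gate was set after the data were seen. By marker counts alone, cluster 16 would have been called mural (Notch3, Ndufa4l2 and Cspg4), but the defining mural genes were low in it: Rgs5 was at 7.11 CPM and Myh11 at 2.40 in GFPlo, against 3285 and 769 in the mural cluster. Clusters 24 and 25 also had too few fibroblast markers by that count.

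The fibroblast clusters carried different leading genes. Cluster 18 (66 GFPhi and 2581 GFPlo cells) was led by Pi16, Scara5 and Efhd1, cluster 17 (93 and 1893) by Sfrp2, Sfrp1 and Ptn, cluster 24 (50 and 936) by Thbs4, Scx, Fmod and Cilp, and cluster 16 (113 and 709) by Acta2, Cnn1 and Dkk2. Cluster 19 (18 and 109) was led by interferon-induced Ifit genes and cluster 25 (16 and 170) held cycling cells. Mesothelial cells were cluster 20 (Wnt4, Enpp2; 215 and 1473) and cluster 21 (Msln, Krt14; 308 and 425). Endothelial cells were cluster 4 (Npr3, Vwf; 199 and 1017) and cluster 9 (Gpihbp1, Aplnr, Sox17; 90 and 162), with lymphatic endothelium as cluster 10 (102 and 277). The mural cluster had 166 GFPlo cells and only 22 in GFPhi, too few for a comparison between fractions. In both libraries, all 10 mesothelial, endothelial and mural markers and 8 of 8 lymphatic markers were at 10 CPM or more in their own class; of the 10 fibroblast markers, 9 were in GFPlo and 8 in GFPhi.

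Fibroblasts held the largest collagen share of the compared classes in both libraries. The 44 members took 3.35% of the UMIs of GFPlo fibroblasts (95% interval 3.35 to 3.36) and 2.99% in GFPhi (2.97 to 3.0). The share was 1.82% and 1.32% in mesothelial cells, 0.745% and 0.429% in endothelial cells and 0.646% and 0.225% in lymphatic endothelium. Mural cells of GFPlo were at 2.02%. Among fibroblast clusters of GFPlo, cluster 16 was highest at 4.13% and cluster 18 lowest at 2.39%. The order across classes, from fibroblasts to lymphatic endothelium, was the same in both libraries.

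Collagen UMIs were also found in lymphocytes, unequally between the libraries, and these values stand beside the low levels of other classes. Lymphocytes, which are not known to make fibrillar collagen, held a mean of 23.6 collagen UMIs per cell in GFPlo (764 cells, median 3) and 0.724 in GFPhi (116 cells, median 0). In GFPlo, 87.3% of the lymphocytes' collagen UMIs lay in the tenth of cells with most of them. The lymphocyte pattern in GFPlo was that of the abundant fibrillar chains: Col1a1 at 7.46 UMIs per cell and Col3a1 at 6.60, against Col4a1 at 0.425. GFPlo cells of endothelial cluster 4 held a mean of 27.7 collagen UMIs and a median of 9, and GFPlo fibroblasts a mean of 323 and a median of 244.5. Whether the lymphocytes' collagen UMIs came from free RNA or from droplets with another cell was not tested. A member was counted as above the lymphocyte level in a class only at 2-fold the lymphocyte UMIs per cell or more.

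**Figure D1:**
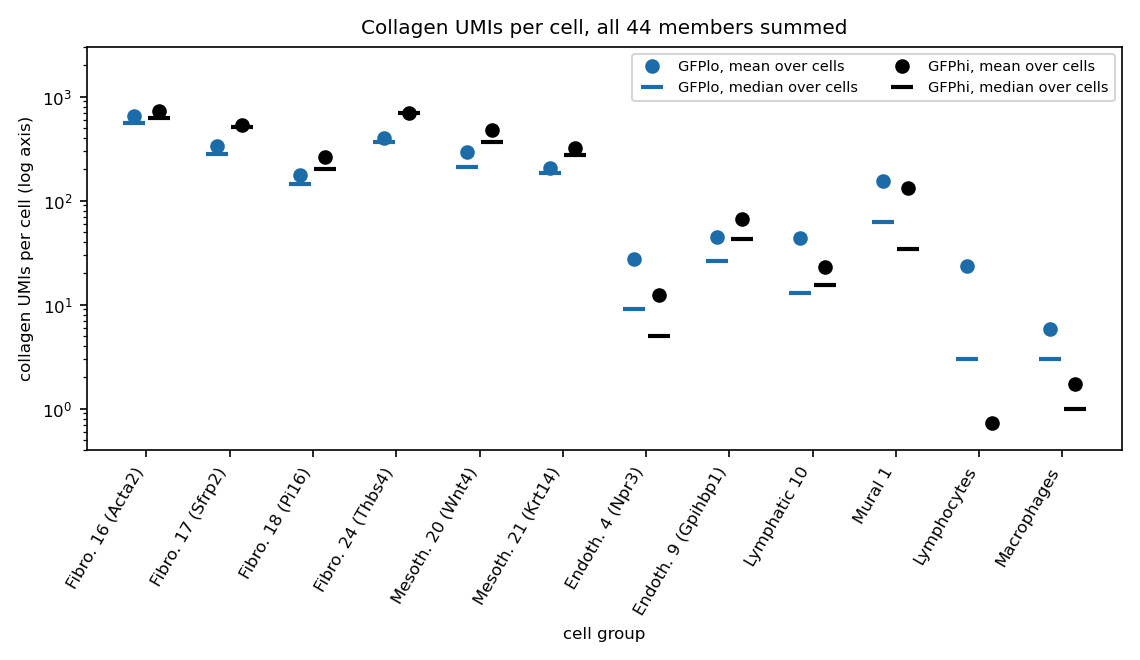
Collagen UMIs per cell on a log axis, all 44 members summed, by cell group and library; dots are means and bars are medians over cells, and the GFPhi lymphocyte median of 0 is not drawn. Fibroblast and mesothelial groups have means from 176 to 727 in both libraries, while GFPlo lymphocytes have a mean of 23.6, next to the 27.7 of GFPlo endothelial cluster 4.

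By this rule, 27 members reached 10 CPM in GFPlo fibroblasts and all 27 also stood 2-fold above lymphocytes. In GFPlo mesothelial cells it was 24 of 25, in mural cells 23 of 23, in endothelial cells 9 of 22 and in lymphatic endothelium 8 of 21. In GFPhi, where lymphocytes held little collagen, every member at 10 CPM was above the lymphocyte level: 24 in fibroblasts, 24 in mesothelial, 19 in endothelial and 12 in lymphatic endothelial cells. The 9 in GFPlo endothelium were Col4a1 to Col4a5, Col5a2, Col13a1, Col18a1 and Col23a1, so Col5a2 was the only fibrillar gene among them. Col1a1, Col1a2 and Col3a1 were under 2-fold the lymphocyte mean there. Few lymphocytes carried most of that mean, so falling under it does not show that endothelial cells lacked these genes. In GFPhi endothelium, Col3a1 was among the 3 highest members and above the lymphocyte level.

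Most members had a preferred cell group. Among 9 groups (fibroblast clusters 16, 17, 18 and 24, mesothelial 20 and 21, endothelial 4 and 9, and lymphatic 10), 32 members reached 10 CPM in both libraries, and for 25 of these the same group was highest in both. In GFPlo, cluster 24 was highest for 10 of them: Col2a1, Col5a2, Col8a1, Col8a2, Col9a2, Col11a1, Col12a1, Col15a1, Col16a1 and Col22a1. Cluster 16 led for Col1a1, Col1a2 and Col5a1, cluster 17 for Col3a1, Col14a1 and Col27a1, and cluster 18 for Col5a3, Col6a1, Col6a2 and Col6a3. Mesothelial cluster 20 led for Col4a6, Col6a5, Col6a6 and Col24a1 and cluster 21 for Col4a5. Endothelial cluster 9 led for Col4a1, Col4a2, Col18a1 and Col28a1, and cluster 4 for Col4a3, Col4a4 and Col23a1. Mural cells were outside these 9 groups. In GFPlo they stood at 115 CPM for Col5a3 and 399 for Col6a3, above the 75.9 and 372 of cluster 18.

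Not every first place was clear. For Col4a5, Col4a6, Col5a3, Col6a3 and Col15a1, the counting intervals of the highest and the next group overlapped in GFPlo. Col7a1, Col13a1 and Col25a1 reached 10 CPM in 1 library only. The remaining 9 members stayed under 10 CPM in every group: Col6a4, Col9a1, Col9a3, Col10a1, Col11a2, Col17a1, Col19a1, Col20a1 and Col26a1. Their highest levels ranged from 1.35 CPM (Col17a1) to 7.23 CPM (Col20a1). Col10a1, the marker of hypertrophic cartilage, had 2 UMIs in all of GFPhi and 17 in GFPlo.

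**Figure D2:**
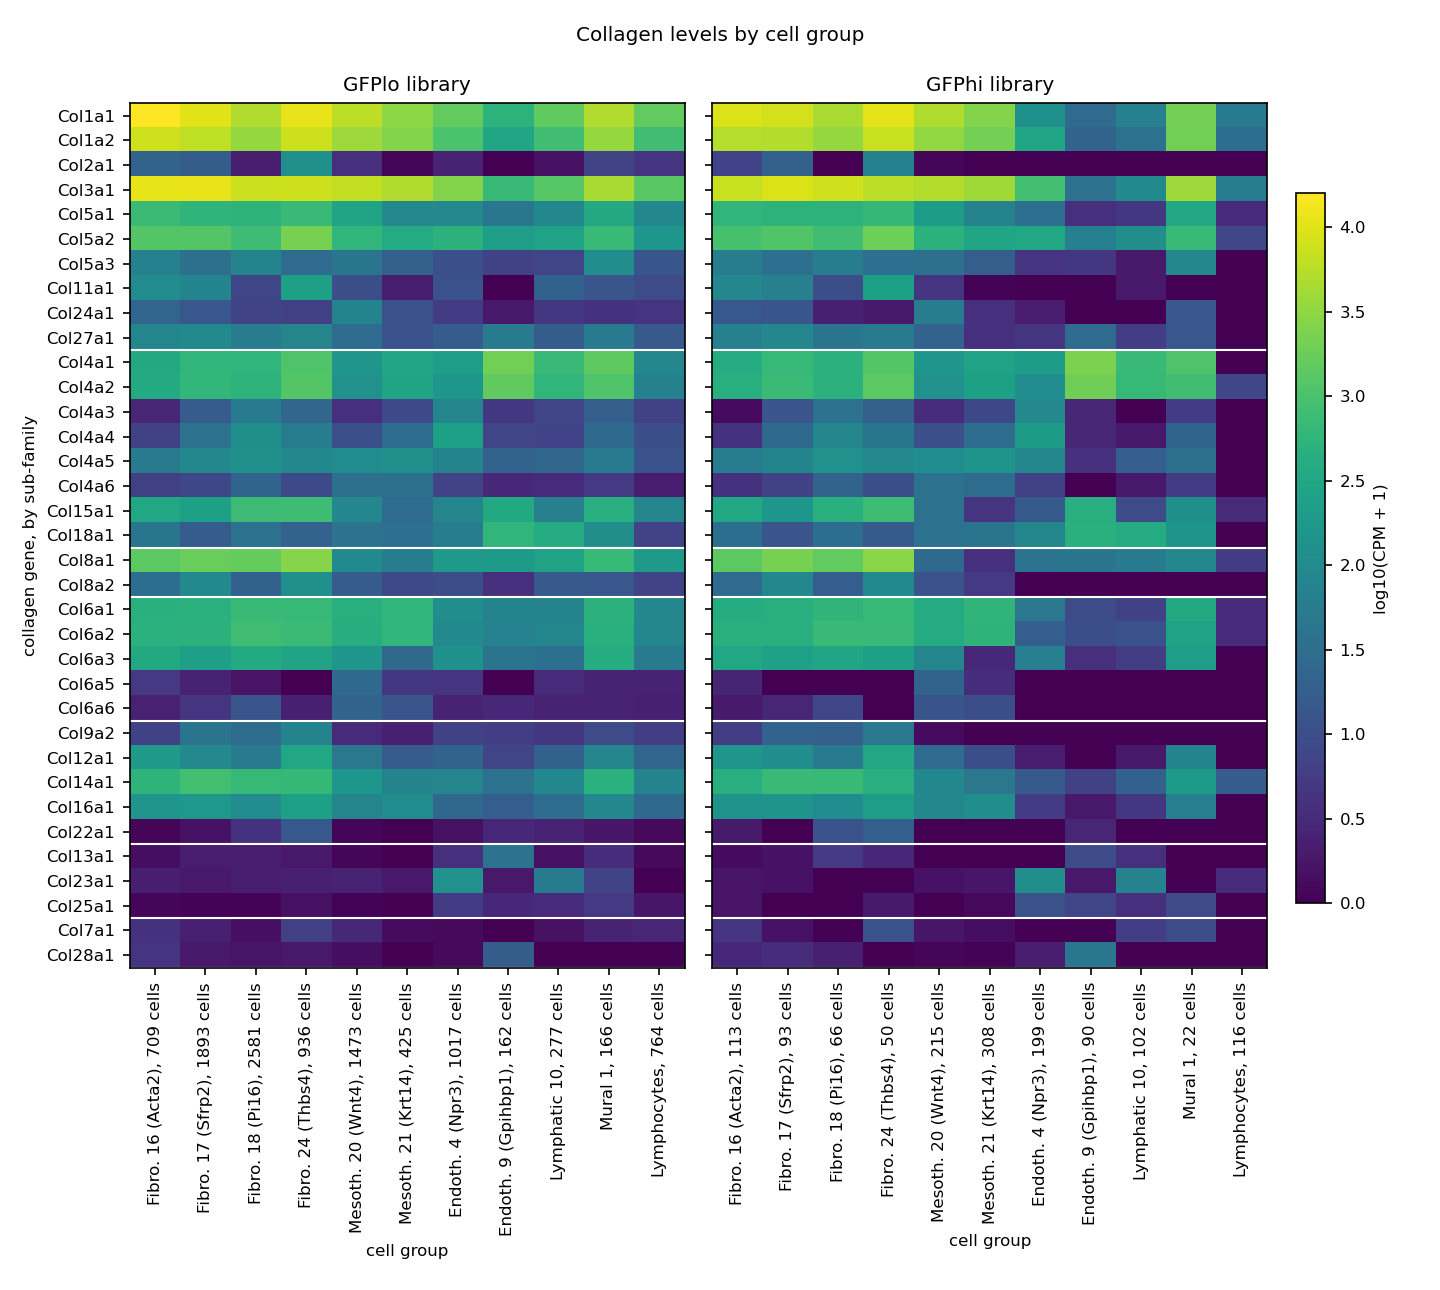
Levels of 35 collagens (those reaching 10 CPM in a stromal group) as log10(CPM + 1) in 11 cell groups of each library; rows are grouped by sub-family with white lines between, and column labels give the cells summed. Fibrillar chains are brightest in fibroblast and mesothelial columns, Col4a1 and Col4a2 in endothelial cluster 9, and the lymphocyte column is dim in GFPhi but not in GFPlo.

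The major fibrillar chains made up most of the collagen. Col1a1, Col3a1 and Col1a2 gave 29.2%, 29.0% and 18% of all collagen UMIs in GFPlo and 28.0%, 29.2% and 18.3% in GFPhi. Fibrillar genes together held 81.1% of the collagen UMIs of GFPlo fibroblasts and 81.0% in GFPhi. In GFPlo fibroblasts Col1a1 stood at 9855 CPM, Col3a1 at 9354 and Col1a2 at 5933; GFPhi fibroblasts had 9100, 7687 and 5447. After thinning each cell to 1000 UMIs, 97.5% of GFPhi and 97.8% of GFPlo fibroblasts still had a Col1a1 UMI. Col5a2 and Col5a1, whose type V trimers are built into type I fibrils and limit their width, were at 1204 and 611 CPM in GFPlo and at 1124 and 572 in GFPhi. These levels were of similar size in both libraries.

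In the Pi16 cluster the major type I chains were lower and 3 minor type IV chains and Col6a6 higher than in the other fibroblasts. In cluster 18 against the other fibroblast clusters, 11 of 28 measured members passed 2-fold in GFPlo, 4 higher and 7 lower, where 6.68% of all measured genes passed in either direction. Col4a3 was at 54.3 CPM (ratio 4.18, 3.77 to 4.64) and Col4a4 at 122 (3.70, 3.46 to 3.95), both chains of the specialised type IV network known from kidney glomerulus. Col4a6 was 3.20-fold and Col6a6 5.20-fold (4.08 to 6.67) higher. Col1a1 was at 5023 CPM, a ratio of 0.418, and Col1a2 at 3437, a ratio of 0.488. Col11a1 (0.0534), Col2a1 (0.0295), Col8a2 (0.239), Col12a1 (0.308) and Col24a1 (0.453) were the other lower members.

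These differences recurred in the GFPhi cells of cluster 18. All 11 members lay on the same side there and 9 passed 2-fold again, with 10 of 28 past 2-fold in all against 10.8% of all measured genes. Col4a3 was 5.12-fold, Col4a4 4.86-fold and Col4a6 4.27-fold higher, Col11a1 was at a ratio of 0.0858 and Col1a1 at 0.489. Col2a1 had 0 UMIs in the 66 GFPhi cells of the cluster and 112 in the other GFPhi fibroblasts.

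In the Thbs4 and Scx cluster, 3 of the 8 cartilage-type members (Col2a1, Col9a2 and Col11a1) were at least 2-fold higher than in the other fibroblasts; Col27a1 was highest in cluster 17 and the other 4 were under 10 CPM in every group. In cluster 24 of GFPlo, 9 members were at least 2-fold higher than in the other fibroblasts and 2 lower, of 28 measured, where 4.98% of all measured genes passed. Col2a1, the fibrillar collagen of cartilage, was at 126 CPM (ratio 10.0, 9.12 to 11.1), and Col11a1, which nucleates those fibrils, at 246 (4.36). Col9a2 (2.77), Col12a1 (3.24) and Col22a1 (8.63) are fibril-associated chains, the last known from muscle to tendon junctions. Both chains of type VIII were also high, Col8a1 at 2735 CPM and Col8a2 at 128 (2.60), as were Col4a1 (2.14), Col4a2 (2.34) and Col5a2 (2.07). Col24a1 (0.403) and Col5a3 (0.452) were lower.

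In GFPhi, cluster 24 had 50 cells and 11 higher and 1 lower of 28 measured members, against 8.89% of all measured genes. The 11 members of GFPlo all lay on the same side in GFPhi and 9 passed again: Col2a1 7.78, Col22a1 8.38, Col9a2 4.07, Col11a1 3.54, Col4a2 2.59, Col12a1 2.49, Col4a1 2.48, Col8a2 2.24 and, lower, Col24a1 0.0919. The cartilage-type list held 1.36% of the collagen UMIs of cluster 24 in GFPlo and 1.16% in GFPhi, against 0.404% and 0.302% in cluster 18. The list remained a small part of the collagen even where it was highest.

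The Acta2 and Cnn1 cluster, whose leading genes are contractile, was richest in type I. In cluster 16 of GFPlo, Col1a1 reached 15291 CPM, Col3a1 11142 and Col1a2 7904. In GFPhi they were 9661, 7139 and 5321, so the first place for Col1a1 and Col1a2 passed to cluster 24 there (10604 and 6981). Past 2-fold were 6 of 27 measured members (5.95% of all measured genes), Col24a1 higher (2.39, 2.04 to 2.80) and 5 lower. Col4a3 (0.0600) and Col4a4 (0.0770) were lowest, followed by Col9a2 (0.140), Col4a6 (0.413) and Col8a2 (0.469). The 5 lower members passed 2-fold in GFPhi too, with Col4a3 at 1 UMI in 113 cells, and 7 of 27 passed in all, against 8.45%. The type IV alpha-3 and alpha-4 chains were thus highest in the Pi16 cluster and lowest in the Acta2 cluster of these 4.

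The Sfrp2 cluster had fewer members past 2-fold than clusters 16, 18 and 24. In GFPlo, Col8a2 was 2.09-fold higher and Col15a1 (0.389), Col2a1 (0.462), Col18a1 (0.468) and Col4a3 (0.490) lower, 5 of 27 measured where 3.95% of all genes passed. In GFPhi, Col8a2 (2.14), Col15a1 (0.363) and Col18a1 (0.417) were the 3 of 26 measured members past 2-fold, where 7.05% of all genes passed. Of the 5 GFPlo members, 3 lay on the same side in GFPhi, while Col2a1 was at 1.01 and Col4a3 at 1.19. Col3a1 was highest here in both libraries, at 11340 CPM in GFPlo and 9355 in GFPhi. The small clusters 19 and 25 had 2 and 5 of 27 measured members past 2-fold in GFPlo, against 5.11% and 14.3% of all measured genes.

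**Figure D3:**
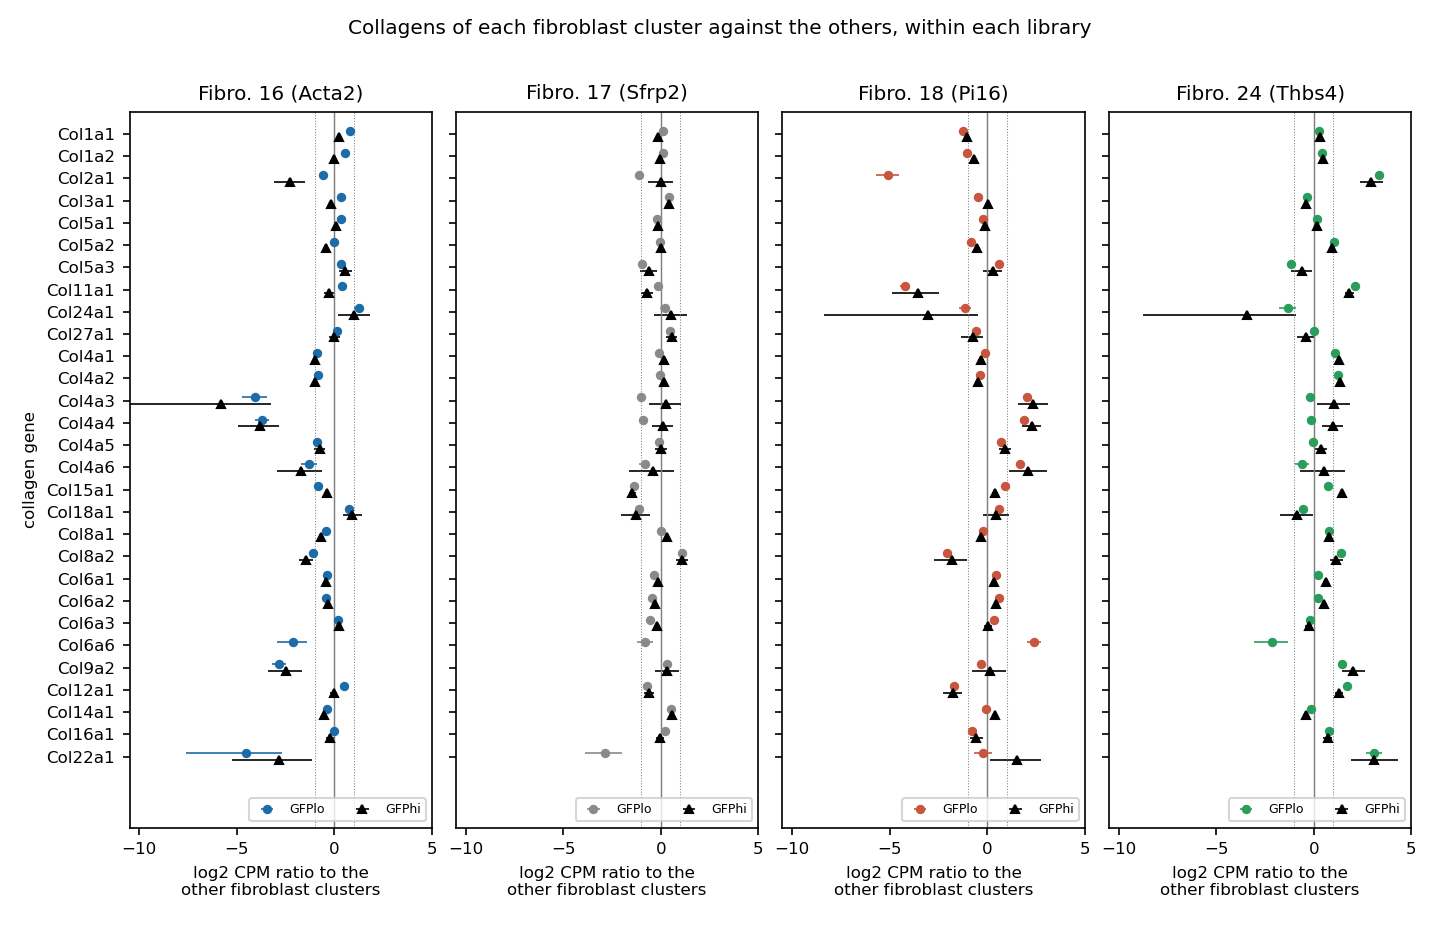
Ratio of CPM in each of fibroblast clusters 16, 17, 18 and 24 to that in the other fibroblast clusters, on a log2 axis, for each measured collagen; coloured circles are GFPlo, black triangles GFPhi, bars exact 95% counting intervals and dotted lines 2-fold (the GFPhi interval of Col4a3 in cluster 16 runs off the axis). Circles and triangles lie together for Col2a1 in cluster 24 (10.0 and 7.78) and for Col4a4 in cluster 18 (3.70 and 4.86).

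The 3 type IV pairs were highest in different cells. Col4a1 and Col4a2, the chains of the ubiquitous type IV trimer, were at 2025 and 1486 CPM in GFPlo endothelial cluster 9 and at 2394 and 1918 in GFPhi. Mural cells had 1457 and 1119 in GFPlo, and fibroblast cluster 24 had 1116 and 1197. Col4a3 and Col4a4 were highest in endothelial cluster 4, at 81.2 and 242 CPM in GFPlo and 92.6 and 193 in GFPhi, with the Pi16 fibroblasts next. Lymphocytes of GFPlo held 0.0445 Col4a4 UMIs per cell against 0.881 in cluster 4. Col4a5 was between 55.4 and 129 CPM in fibroblast clusters 16, 17, 18 and 24 and the mesothelial clusters of GFPlo, and Col4a6, the rarer chain, was highest in mesothelial clusters 20 and 21 at 34.5 and 34.3. Of the 9 groups, which leave out mural cells, those with the highest level belonged to the same class for both genes of each head-to-head pair. For Col4a5, the counting intervals of mesothelial cluster 21 and fibroblast cluster 18 overlapped in both libraries, so its leading class was not resolved.

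Col15a1 and Col18a1, the basement membrane proteoglycans, separated too. Col15a1 was at 787 CPM in fibroblast cluster 24 and 764 in cluster 18, but at 243 in cluster 17 (GFPlo). Col18a1, the source of the fragment endostatin, was at 589 CPM in endothelial cluster 9 and 400 in lymphatic endothelium, against 28.3 in fibroblasts (GFPlo). In GFPhi these 3 Col18a1 levels were 466, 385 and 22.3. Col18a1 was the main basement membrane collagen of lymphatic cells after Col4a1 (704 CPM) and Col4a2 (579).

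Among network and beaded filament chains of GFPlo, Col8a1 was highest in fibroblasts, and type VI was shared with mesothelial and mural cells. Col8a1, a short-chain collagen of vessel walls and scars, was at 1762 CPM in GFPlo and 1768 in GFPhi fibroblasts, against 89.5 and 12.7 in mesothelial cells. Its partner Col8a2 was far lower, at 61.6 and 53.7 CPM in fibroblasts. Col6a1 and Col6a2 were at 573 and 625 CPM in GFPlo fibroblasts and 460 and 453 in mesothelial cells. Col6a3, the large chain needed for the common type VI trimer, was at 316 and 125. The 166 mural cells of GFPlo held 822 UMIs of Col8a1, 632 of Col6a1 and 592 of Col6a2. Their Col6a3 level, 399 CPM, was the highest of the GFPlo classes. Col6a5, an alternative to that chain, was highest in mesothelial cluster 20 at 26.1 CPM in GFPlo and 20.4 in GFPhi, and Col6a6 there was at 20.4 and 11.5.

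Fibril-associated chains were led by Col14a1, at 667 CPM in GFPlo and 525 in GFPhi fibroblasts and highest in cluster 17 (846 and 714). Col16a1 was at 156 and 150 and Col12a1 at 136 and 153 in fibroblasts. In mesothelial cells of GFPlo they were at 143, 86.6 and 38.1 for Col14a1, Col16a1 and Col12a1. Together the fibril-associated genes held 3.0% of the collagen UMIs of GFPlo fibroblasts and 2.86% in GFPhi.

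The mesothelial clusters differed in type VI and minor fibrillar chains. In cluster 21 against cluster 20 of GFPlo, 2 members were higher and 10 lower of 25 measured, where 10.8% of all measured genes passed 2-fold. Col4a4 was 3.09-fold and Col4a2 2.11-fold higher in cluster 21. Lower were Col24a1 (0.133), Col6a5 (0.147), Col6a3 (0.175), Col12a1 (0.330), Col5a1 (0.334), Col15a1 (0.339), Col27a1 (0.365), Col5a3 (0.449), Col14a1 (0.478) and Col1a1 (0.495). In GFPhi all 12 lay on the same side and 8 passed again, among 10 of 25 past 2-fold (11% of all measured genes); Col6a3 was at 0.0250 and Col24a1 at 0.0490. Col24a1 was highest of all groups in mesothelial cluster 20 in both libraries, at 75 CPM in GFPlo and 58.0 in GFPhi.

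The endothelial clusters differed in their collagen levels. In GFPlo, 22 members reached 10 CPM in cluster 4 and 19 in cluster 9, of which 6 and 8 also stood 2-fold above lymphocytes. In GFPhi, 18 of 19 members at 10 CPM did so in cluster 4 and 9 of 11 in cluster 9. In cluster 9 against cluster 4 of GFPlo, 6 members were higher and 13 lower of 23 measured, but these clusters differed widely, with 24.7% of all measured genes past 2-fold. Higher in cluster 9 were Col18a1 (10.3), Col4a2 (9.40), Col4a1 (8.85), Col15a1 (4.53), Col27a1 (3.28) and the transmembrane Col13a1 (13.7, from 39 and 10 UMIs). In GFPhi, where 27% of all measured genes passed, the ratios were 5.58 for Col18a1, 17.3 for Col4a2, 11.8 for Col4a1, 30.4 for Col15a1 and 8.53 for Col27a1. Col28a1, which is related to type VI, was at 43.8 CPM in GFPhi cluster 9 (47 UMIs) and 16.2 in GFPlo. Col23a1, a transmembrane collagen, went the other way, with 134 CPM in cluster 4 and 0.953 in cluster 9 of GFPlo (ratio 0.00710) and 119 against 0.932 in GFPhi. The cluster 9 value is 1 UMI in each library (interval of the ratio 0.000179 to 0.0398 in GFPlo). Lymphocytes of GFPlo had 0 Col23a1 UMIs in 764 cells, a count that allows up to 3. Of the 19 members past 2-fold in GFPlo, 18 were on the same side in GFPhi and 15 passed.

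Basement membrane genes held 65.6% of the collagen UMIs of cluster 9 in GFPlo and 94.3% in GFPhi. In lymphatic endothelium the values were 27.7% and 77.1%. The fibrillar share moved the other way, from 26.9% of collagen UMIs in GFPlo cluster 9 to 3.33% in GFPhi. Fibroblast markers moved with it: the 10 markers summed to 1345 CPM in GFPlo cluster 9 and 162 in GFPhi, and to 1873 and 599 in lymphatic endothelium. In cluster 4, the Npr3 cluster, Col3a1 remained the highest fibrillar gene in GFPhi at 861 CPM, or 3.83 UMIs per cell against 0.216 in GFPhi lymphocytes. After thinning, 35.9% of those GFPhi cluster 4 cells had a Col3a1 UMI, against 10.2% of GFPhi lymphocytes.

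Ratios between chains of 1 trimer were also read by group, since they do not depend on scaling. The type I trimer holds a pair of alpha-1 chains and a single alpha-2 chain. Col1a1 over Col1a2 was 1.66 in GFPlo fibroblasts (1.65 to 1.67) and 1.67 in GFPhi (1.65 to 1.69). Over fibroblast clusters 16, 17, 18 and 24 it ran from 1.46 in cluster 18 to 1.93 in cluster 16 in GFPlo and from 1.32 to 1.82 in GFPhi. Cluster 21 had 1.14 (1.12 to 1.17) and 1.25 (1.23 to 1.28). In GFPhi endothelial cluster 4 it was 0.413 (0.328 to 0.517, from 111 and 269 UMIs), so Col1a2 outnumbered Col1a1 in those GFPhi cells. The ratio was 1.5 in GFPlo cluster 4 and 1.85 in GFPlo lymphocytes. Col1a1 had 5742 UMIs in the 1017 GFPlo cells of cluster 4 and 5702 in the 764 GFPlo lymphocytes, fewer per cell in cluster 4. Whether the GFPlo ratio is that of the endothelial cells themselves was not tested.

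Col6a1 over Col6a2 was between 0.868 and 1.13 over the stromal groups of GFPlo. In GFPhi it was between 0.837 and 1.05 in fibroblast clusters 16, 17, 18 and 24 and the mesothelial clusters, 0.9 in endothelial cluster 9 (9 and 10 UMIs), 2.67 in cluster 4 (1.44 to 5.20, from 40 and 15 UMIs) and 0.545 in lymphatic endothelium (6 and 11 UMIs). Col6a3 followed another pattern. Col6a3 over Col6a1 was 0.552 in GFPlo fibroblasts and 0.617 in GFPhi, and 0.780 and 0.804 in cluster 16. In mesothelial cluster 21 it was 0.0468 (176 and 3759 UMIs) and 0.00359 (18 and 5008 UMIs), and in cluster 20 it was 0.362 and 0.213. Cluster 21 cells in GFPhi therefore held Col6a1 and Col6a2 (569 and 539 CPM) with almost no Col6a3 (2.04 CPM).

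For type V, Col5a1 over Col5a2 was 0.508 and 0.509 in GFPlo and GFPhi fibroblasts, with a low of 0.318 and 0.329 in cluster 24 and a high of 0.693 and 0.638 in cluster 18. Col8a1 over Col8a2 was 28.6 and 32.9, from 17.8 and 23.7 in cluster 17 to 82.5 and 89.0 in cluster 18. Col4a1 over Col4a2 was 0.994 and 0.892 in fibroblasts, and its highest value was in cluster 4, at 1.45 and 1.83. Col1a1 over Col3a1, chains of different trimers, also differed between the fibroblast clusters, at 0.679 and 0.582 in cluster 18 against 1.37 and 1.35 in cluster 16 and 1.51 and 1.75 in cluster 24.

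**Figure D4:**
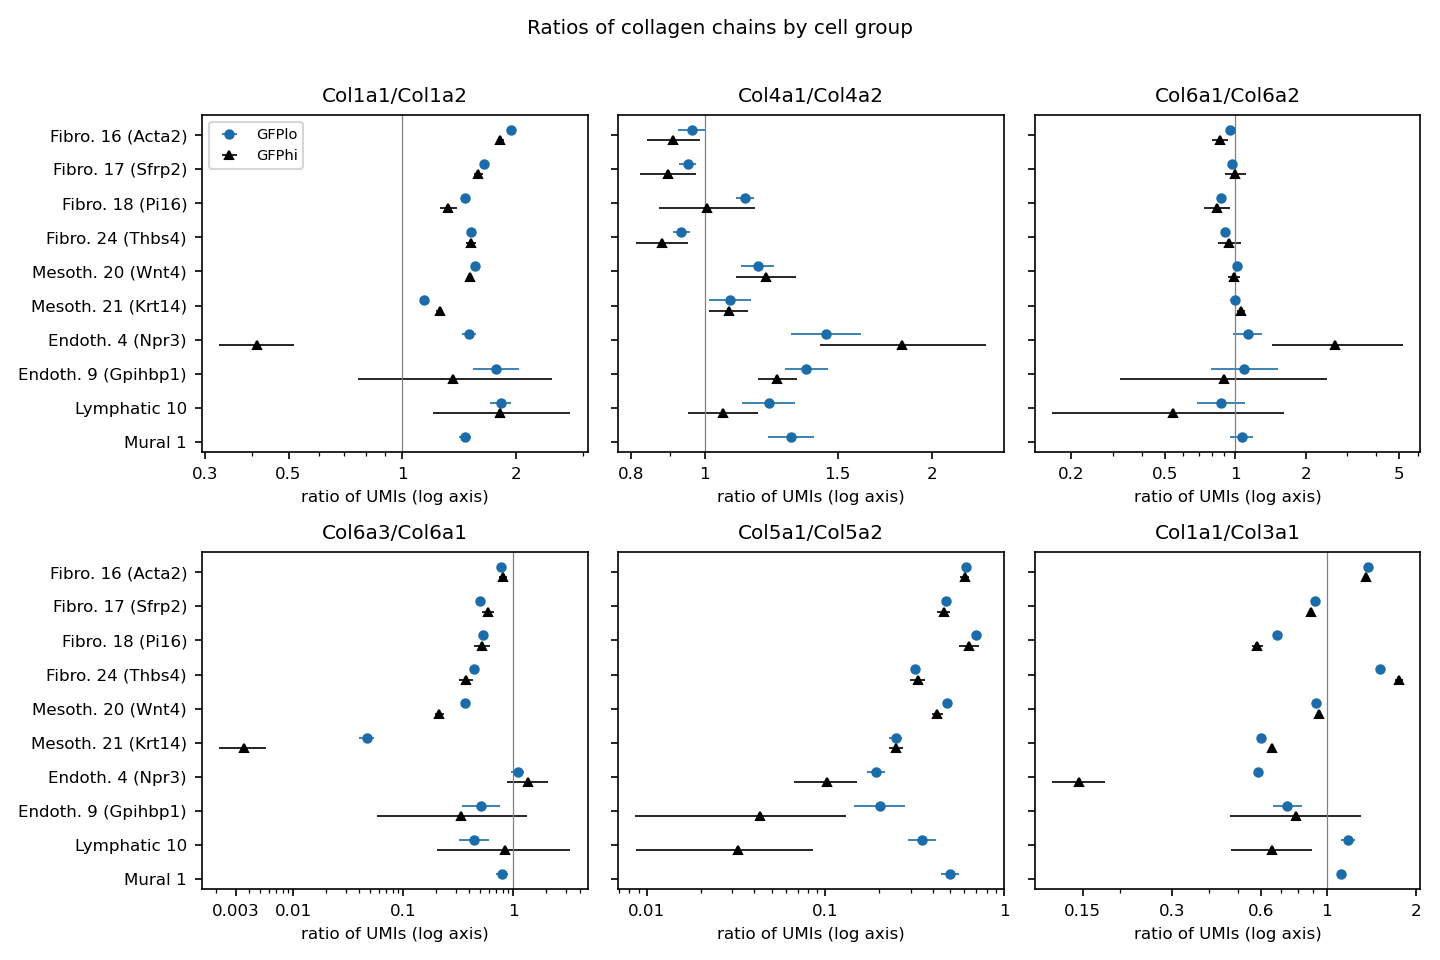
Ratio of UMIs of 6 pairs of collagen chains (log axis) in each stromal cell group; blue circles are GFPlo, black triangles GFPhi and bars exact 95% counting intervals, with mural cells shown for GFPlo only. Col1a1 over Col1a2 sits between 1.46 and 1.93 in the 4 fibroblast clusters of GFPlo and at 0.413 in GFPhi endothelial cluster 4, and Col6a3 over Col6a1 is lowest in mesothelial cluster 21.

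The GFP sort sets cells sorted as GFPhi against GFPlo cells of the same class. Whether each GFPhi stromal cell had itself switched on p16 was not tested. In fibroblasts, summed collagen was 0.890 of the GFPlo level in GFPhi (0.886 to 0.894). Of 27 measured members, 0 were at least 2-fold higher in GFPhi and 3 at least 2-fold lower, where 1.87% of all measured genes passed, 1.35% higher and 0.52% lower. They were Col4a3 (25.7 CPM in GFPlo and 9.99 in GFPhi; 0.388, 0.30 to 0.494), Col4a4 (60.4 and 24.6; 0.408, 0.348 to 0.476) and Col9a2 (34.3 and 16.2; 0.473, 0.387 to 0.572). The median log2 ratio was -0.27 over measured members and -0.09 over all measured genes.

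Cluster makeup differed between the fractions: cluster 16, where Col4a3 and Col4a4 were lowest, held 113 of 356 GFPhi fibroblasts, and cluster 18, where they were highest, 2581 of 6398 GFPlo ones. Within clusters 17, 18 and 24, the Col4a3 ratio was 0.802, 0.656 and 0.809 and the Col4a4 ratio 0.716, 0.672 and 0.749, none past 2-fold. In cluster 16, Col4a3 rested on 1 GFPhi UMI. By cluster, 1 of 23 measured members passed in cluster 16 (Col2a1, 0.280; 3.54% of all measured genes), 1 of 26 in cluster 17 (Col9a2, 0.494; 1.71%), 1 of 26 in cluster 18 (Col22a1, 3.41, from 8 and 59 UMIs; 5.28%) and 0 of 27 in cluster 24 (3.63%). The summed ratio was 0.688 in cluster 16, 0.858 in 17, 0.967 in 18 and 0.906 in 24. The Acta2 cluster thus had the lowest summed ratio of these 4.

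Other measures moved with the fraction in fibroblasts. The median UMI count per cell was 17030 in GFPhi and 8493 in GFPlo. Of the GFPhi fibroblasts, 72.8% had a UMI of Ptprc, Cd68 or C1qa, against 2.91% in GFPlo, and the 14 macrophage markers summed to 2717 CPM with 10 at 10 CPM or more, against 998 CPM and 3. In cluster 16 these sums were 3844 and 374 CPM, and in cluster 24 they were 906 and 390. The part of these in the collagen ratios of fibroblasts was not tested beyond leaving out the cells with such a leukocyte UMI. That left 97 GFPhi cells and gave a summed ratio of 0.910 and 1 member past 2-fold: Col4a3 was then at 0.707 (0.472 to 1.02) and Col4a4 at 0.615 (0.467 to 0.795), no longer past 2-fold, and Col9a2 at 0.497. Col9a2 in turn was at 0.501 with median-of-ratios scaling and 0.522 with fibroblasts gated cell by cell.

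In mesothelial cells, summed collagen was 0.722 of the GFPlo level (0.718 to 0.725), and 8 of 25 measured members were at least 2-fold lower in GFPhi and 0 higher, where 4.54% of all measured genes passed, 2.51% lower and 2.03% higher. Col8a1 was at 89.5 CPM in GFPlo and 12.7 in GFPhi (0.141, 0.122 to 0.164), Col6a3 at 125 and 36.0 (0.288, 0.263 to 0.316) and Col15a1 at 74.9 and 17.5 (0.233). The others were Col27a1 (0.414), Col24a1 (0.439), Col14a1 (0.454), Col12a1 (0.458) and Col6a5 (0.483). Basement membrane genes summed to 1.06 of the GFPlo level (1.03 to 1.08) and beaded filament genes to 0.95, so the lower level was one of fibrillar (0.697), fibril-associated (0.693) and network (0.190) genes.

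Here too the makeup differed, since cluster 21 held 308 of 523 GFPhi cells and cluster 20 held 1473 of 1898 in GFPlo. Within clusters, 2 of 24 members passed in cluster 20 (Col8a1, 0.264, and Col15a1, 0.412; 2.21% of all measured genes) and 4 of 22 in cluster 21 (Col8a1, 0.0463, Col6a3, 0.0760, Col15a1, 0.118, and Col27a1, 0.273; 2.16%). Col8a1 and Col15a1 were therefore at least 2-fold lower in both clusters. In GFPlo, Col8a1 had 2545 UMIs in 1898 mesothelial cells and 369 in the 425 of cluster 21, against 694 in 764 lymphocytes. Its GFPlo mesothelial level was thus under 2-fold the lymphocyte UMIs per cell. Col8a1 and Col15a1 are both high in fibroblasts, and the summed fibroblast markers were 5359 CPM in GFPhi and 7842 in GFPlo mesothelial cells. Dcn, 1 of these markers, had a UMI in 99.7% of the cells of cluster 20 and of cluster 21. The sum is thus not specific to fibroblast RNA, and the part of such RNA in the result was not tested. A UMI of Ptprc, Cd68 or C1qa was in 85.3% of GFPhi and 15.6% of GFPlo mesothelial cells. The 14 macrophage markers summed to 1679 CPM in GFPhi (9 at 10 CPM or more) and 711 in GFPlo (3), and the median UMI count was 28424 and 13874.5. Without the cells with such a UMI, which left 77 in GFPhi, the summed ratio was 0.805 and 4 members passed: Col8a1 was at 0.394 and Col6a3 at 0.475, while Col15a1 (0.810), Col12a1 (0.649), Col14a1 (0.591), Col24a1 (0.557) and Col27a1 (1.05) no longer passed. Col6a5 was at 0.515 with median-of-ratios scaling.

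Over all endothelial cells, Col4a1 and Col4a2 were higher and most fibrillar genes lower in GFPhi. Of 23 measured members, 3 were at least 2-fold higher and 14 lower in GFPhi, where 9.46% of all measured genes passed, 4.78% higher and 4.68% lower. Col4a1 was at 626 CPM in GFPlo and 1403 in GFPhi (2.24, 2.13 to 2.36), Col4a2 at 452 and 1101 (2.44, 2.29 to 2.59), and Col28a1 was 6.46-fold higher (3.69 to 11.8). Among the lower ones were Col1a1 (1326 and 72.0 CPM; 0.0543), Col12a1 (0.0288, 0.000721 to 0.165, from 1 GFPhi UMI), Col16a1 (0.114), Col6a2 (0.135) and Col14a1 (0.136). The summed ratio was 0.575 (0.562 to 0.589), with 1.88 for basement membrane and 0.170 for fibrillar genes. Within clusters 4 and 9 the basement membrane sum was at 0.849 and 1.16 and the fibrillar sum at 0.282 and 0.10. At clustering resolution 0.5, Col1a1 over all endothelial cells was at 0.173.

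Within the endothelial clusters, Col4a1 and Col4a2 did not pass 2-fold: Col4a1 was at 229 and 202 CPM in cluster 4 and at 2025 and 2394 in cluster 9, in GFPlo and GFPhi. Cluster 9 was 90 of 289 GFPhi and 162 of 1179 GFPlo endothelial cells. In cluster 4, 14 of 23 members were at least 2-fold lower and 1 higher (Col25a1, 2.21, 0.867 to 5.24), where 7.61% of all measured genes passed, 4.74% lower and 2.87% higher. In cluster 9, 12 of 18 were lower and 1 higher (Col28a1, 2.70, 1.52 to 5.02), where 8.9% passed, 5.45% lower and 3.45% higher. Col1a1 was at ratios of 0.0806 and 0.0537 and Col3a1 at 0.325 and 0.0501. In lymphatic endothelium 16 of 21 measured members were lower and 0 higher (8.99% of all measured genes passed, 6.02% lower and 2.96% higher), Col1a1 and Col1a2 each at 0.0440, and Col4a1 was level at 704 and 681 CPM.

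Collagen UMIs of lymphocytes and leukocyte markers also differed between the fractions. A UMI of Ptprc, Cd68 or C1qa was in 52.9% of GFPhi and 3.31% of GFPlo endothelial cells, and in 57.8% and 2.17% of lymphatic ones. The 14 macrophage markers summed to 4587 and 2427 CPM in endothelial cells (12 and 3 of them at 10 CPM or more) and to 3925 and 356 CPM in lymphatic cells (13 and 3, with C1qa, C1qb, C1qc and Fcgr1 at 0 in GFPlo). Without the endothelial cells with such a UMI, 11 members passed 2-fold in place of 17: Col4a1 (1.70), Col4a2 (1.90), Col4a4 (0.741), Col5a2 (0.529) and Col13a1 (0.804) no longer did, and Col28a1 was at 2.32. Median UMIs per cell were 4643 and 3220 in endothelial cells. Lymphocytes, by the same measure, had 1529 CPM of Col1a1 in GFPlo and 52.5 in GFPhi. Summed fibroblast markers were 3594 CPM in GFPlo and 1286 in GFPhi endothelial cells, with Dpt, Scara5 and Tcf21 at 0 in GFPhi. Once the lymphocyte UMIs per cell were subtracted, a step chosen after the data were seen, the summed endothelial ratio was 1.75, above 1. Without endothelial cells that had a Lum UMI, also chosen afterwards, it was 0.909, and 0.776 in lymphatic endothelium. In that setting Col4a1 was at 1.74 and Col4a2 at 1.93 in endothelial cells. Only the subtraction put the summed endothelial ratio above 1. It cannot decide the direction, since its mean does not stand for each cell, and the background of single endothelial cells was not tested. The Col4a1 levels were far above the lymphocyte level (13.1 UMIs per cell in GFPlo cluster 9 against 0.425).

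**Figure D5:**
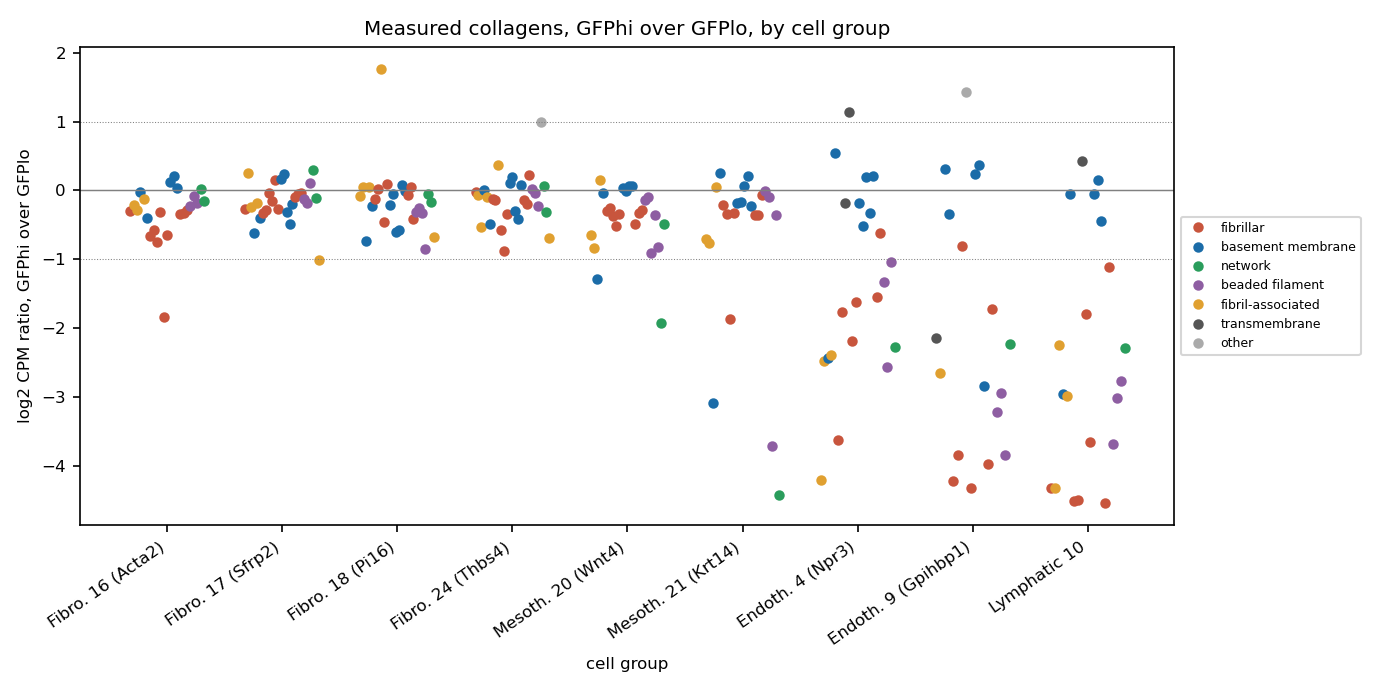
Log2 ratio of CPM, GFPhi over GFPlo, of each measured collagen in 9 clusters; points are genes coloured by sub-family, the solid line is no difference and dotted lines are 2-fold, and genes with 0 UMIs in a library are not drawn. Points lie near 0 in fibroblast clusters, where 0 or 1 member passes 2-fold, and fibrillar points lie far below it in endothelial clusters 4 and 9 and lymphatic cluster 10.

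The 60 genes for collagen folding, export, processing, cross-linking, breakdown, binding and basement membranes gave context. In fibroblasts 0 of 46 measured ones passed 2-fold between the fractions, where 1.87% of all measured genes passed. The highest were Sparc, a collagen-binding matricellular protein, at 16922 CPM in GFPlo and 15822 in GFPhi, Serpinh1, the collagen chaperone HSP47, at 1764 and 1475, and the cross-linking enzyme Loxl1 at 1146 and 925. In mesothelial cells 1 of 47 was higher (Lama5, 2.08) and 6 lower, where 4.54% of all measured genes passed. The procollagen processing helper Pcolce2 (0.125) was among the lower ones. In endothelial cells 0 of 48 were higher and 15 lower (9.46% of all measured genes passed). In lymphatic endothelium 1 of 45 was higher (the leukocyte collagen receptor Lair1, 5.07) and 17 lower, including Lox (0.0261), against 8.99%. Macrophage markers were also higher in GFPhi than in GFPlo lymphatic cells, as given above. In lymphocytes 1 of 40 partners was higher and 31 lower. Their median log2 ratio was -3.19, against 0.00653 over all measured genes.

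Partner genes also differed between fibroblast clusters. In cluster 18 of GFPlo, 5 of 47 were higher and 5 lower, where 6.68% of all measured genes passed. The higher ones included the collagen glycosyltransferase Colgalt2 (5.89, and 6.73 in GFPhi), Pcolce2 (2.42 and 2.99) and the laminin chains Lamc1 (2.59 and 2.23) and Lama2 (2.19 and 2.33). The 5 lower ones included Lox (0.351 and 0.466) and the prolyl hydroxylase subunit P4ha3 (0.267 and 0.286). In cluster 16 of GFPlo, 2 of 48 were higher and 6 lower, where 5.95% of all measured genes passed. P4ha2, another prolyl hydroxylase subunit (2.02 and 2.06), was among the higher ones and Lama2 (0.280 and 0.345) among the lower. In cluster 24, 4 of 46 were higher and 0 lower in GFPlo (4.98% of all measured genes), but 0 were higher and 1 lower in GFPhi (8.89%). Cluster 17 of GFPlo had 0 higher and 1 lower of 47, against 3.95% of all measured genes. In endothelial cluster 9 against 4, 10 of 49 partners were higher and 13 lower in GFPlo, where 24.7% of all measured genes passed. In GFPhi, 11 of 41 were higher and 13 lower (27%). Among the higher ones were the collagen receptor chains Itga2 (27.6 and 31.4) and Itga1 (3.29 and 6.08). The basement membrane genes Lama5 (4.05 and 4.31) and Hspg2 (2.63 and 3.20) were also among them.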

How the data were processed

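The 2 count matrices hold raw UMI counts per gene and cell barcode, as deposited by the authors; the genome build was mm10, per the submitters' processing notes, while an aligner and a counter were not given in the sources used here. Labels name both a SeekOne 3′ kit and 10x Genomics. The libraries held 10430 (GFPhi) and 12344 (GFPlo) barcodes with 91343549 and 104855204 UMIs, and the filter left out 305 and 385. Cells were scaled to 10000 UMIs, log-transformed and clustered on 2000 variable genes (without collagens and the reporter genes), 30 principal components and 15 neighbours, by Leiden at resolution 1.0 (Python 3.11.15, scanpy 1.11.5, igraph 0.11.9, numpy 2.4.6, scipy 1.17.1; figures by matplotlib 3.10.9). No doublet caller was run.

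A cluster was named when 3 or more markers of a class were at least 2-fold higher in it and in 10% of its cells; the fibroblast gate, and a preference for classes with markers among the 10 leading genes, were added after the data were seen. UMIs were summed per class or cluster. Ratios have exact conditional binomial intervals, levels exact Poisson and shares Clopper-Pearson ones, all at 95%; groups needed 50 cells in each library. A count of 0 allows up to 3. The ratio script was tested on simulated data. Values are given for the highest members of each class, those leading a sub-family and those past 2-fold. The members and lists were chosen with earlier results of these data known. Codon runs from GENCODE vM21 transcripts stand in for protein repeats, and Ctage5, a name on the partner list, had no match. Alternatives covered the cell filter, resolution, leukocyte-positive cells, a single-cell gate, scaling, cell weighting, thresholds and, chosen after the data were seen, subtraction of lymphocyte UMIs and removal of Lum-positive endothelial cells.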

Additional observations from a re-analysis of the deposited data

How the results depend on the processing

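Of 87 values recomputed for the summed ratios and the counts of members, 56 stayed within 1.5 times (counts) or within their counting interval (ratios), 30 moved and 1 reversed. The summed GFPhi over GFPlo ratio in fibroblasts (0.890) was 0.884 at resolution 0.5, 0.910 without cells with a Ptprc, Cd68 or C1qa UMI, 0.868 with the single-cell gate on Pdgfra, Dcn and Lum, 0.942 with median-of-ratios scaling, 0.917 with cells weighted equally and 0.959 after subtracting lymphocyte UMIs. In mesothelial cells (0.722) the same settings, the gate aside, gave 0.716, 0.805, 0.770, 0.710 and 0.788. In endothelial cells (0.575) resolution 0.5 gave 0.615, leaving out leukocyte-positive cells 0.526, leaving out Lum-positive cells 0.909, median-of-ratios scaling 0.562, and subtracting lymphocyte UMIs 1.75, which reversed the direction. In lymphatic endothelium (0.349) leaving out Lum-positive cells gave 0.776, equal weights 0.482 and subtraction 0.732. The members past 2-fold numbered 1 without leukocyte-positive cells, 9 with no minimum level and 1 at 50 CPM in fibroblasts (3 as reported); 4, 13 and 5 in mesothelial cells (8), with 5 after subtraction; 11 without leukocyte-positive cells in endothelial cells (17); and 6 without Lum-positive cells, 9 after subtraction and 10 at 50 CPM in lymphatic endothelium (16). Members past 2-fold in at least 1 fibroblast cluster of GFPlo numbered 19, and 29 with no minimum. By cluster, 16, 17, 18, 19, 24 and 25 had 6, 5, 11, 2, 11 and 5; these were 2, 2, 7, 0, 9 and 2 at 50 CPM, 13, 6, 18, 8, 18 and 12 with no minimum, and 13, 9, 18, 5, 15 and 8 at a fold of 1.5. Single ratios were recomputed for the 40 calls by class with 50 or more UMIs (the 4 left out were lymphatic). Of 192 such values, 191 kept their direction; Col27a1 in mesothelial cells was at 1.05 without leukocyte-positive cells. The cause of these shifts was not tested. The subtraction and the Lum step were chosen after seeing the data. Depth limits rare members most: several ratios rest on fewer than 50 UMIs. No paired analysis was possible because each fraction is 1 library.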

Other observations

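Col14a1 was also counted in GFPhi macrophages, at 40.3 CPM or 0.343 UMIs per cell over 7360 cells, against 0.0603 UMIs per cell in the 116 GFPhi lymphocytes. It ranged from 10.9 CPM in macrophage cluster 8 to 71.3 CPM in cluster 7. The 84 macrophages of GFPlo held 0.167 Col14a1 UMIs per cell, below the 0.382 of GFPlo lymphocytes. Summed collagen in GFPhi macrophages was 1.74 UMIs per cell and 0.0205% of UMIs, against 0.724 UMIs per cell and 0.0192% in GFPhi lymphocytes. Cluster 11, which the markers did not name, held collagen at 2.62% of UMIs in GFPhi and 4.14% in GFPlo, with a Dcn UMI in 75.8% and a Lum UMI in 48.9% of its cells; the latter is under the 75% that the fibroblast gate asked for.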
